A study of Corylus heterophylla with 6 samples.

Results

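The 1412 regions described here are the sites at which chromatin immunoprecipitation sequencing (ChIP-Seq) found ChARF3, an auxin response factor of the hazel Corylus heterophylla, in ovules at ovule formation, the stage named Ov1.1. They are all the rows of the peak list deposited for this stage, out of 3669 peaks in the lists of 3 stages, and no peak was selected or left out. The ChIP library was made with a polyclonal antibody against ChARF3 from Ov1.1 ovules, and it was set against an input library made from Ov1.1 chromatin without that antibody. The lists used for reference are those of early ovule growth (Ov2.1, 1364 peaks) and rapid ovule growth (Ov3.1, 893 peaks), each called against an input of its own. All libraries came from medium-sized ovules fixed with 1% formaldehyde, and by the study's methods the chromatin was sheared to 200 to 600 bp. A footnote of the study instead describes the input as DNA before shearing, so the sources differ for the input libraries. The labels call the plants wild germplasm of C. heterophylla, whereas the study's methods name the hybrid cultivar Dawei, so the genotype behind the libraries is uncertain. With 1 ChIP library and 1 input library at the stage there was no replicate, so no test or SD is given, and every interval below covers counting error only. A polyclonal antibody can also pull down related proteins, and no library without ChARF3 was used here.

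Auxin response factors are transcription factors that bind auxin response elements in DNA through a B3 domain. At low auxin, Aux/IAA proteins can hold such factors in check, and auxin leads to the breakdown of Aux/IAA proteins. Some ARFs activate genes and others repress them. The study treats ChARF3 as a repressor and groups it with Arabidopsis repressors. Whether Aux/IAA proteins hold ChARF3 in check was not tested. The study numbered the hazel factors on its own, so ChARF3 is not to be read as the homologue of ARF3 of Arabidopsis. In hazel the ovules form only after pollination.

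The peaks lay on 273 of the 323 contigs that carry a peak in any of the lists, at 4.59 peaks per Mb (exact Poisson 95% interval 4.35 to 4.83). Contig lengths were not held, so the span of a contig is the largest end coordinate seen on it in the 3 lists, 308 Mb in all. This span is a lower limit of the length, and each density is therefore an upper limit. On this shared span the density was 4.43 per Mb in the Ov2.1 list (4.198 to 4.67) and 2.90 in the Ov3.1 list (2.71 to 3.097). A contig with an Ov1.1 peak had a median of 3 of them. Only 1 peak was found on 83 contigs, and 41 contigs with 10 or more peaks held 696 peaks (49.3%, exact Clopper-Pearson 95% interval 46.7% to 51.9%). The 50 contigs without an Ov1.1 peak were short, with known spans of up to 0.907 Mb and 14.4 Mb in all.

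The number of peaks was higher on longer contigs, with a Spearman correlation of 0.75 and a Pearson correlation of 0.78 over the 323 contigs. All contigs share 1 library, and the span itself comes from peak positions, so these are descriptions. Contig tig00007112 carried the most Ov1.1 peaks, 49 in 5.98 Mb, which is 8.19 per Mb (6.06 to 10.8). Its neighbouring peaks were a median of 63.0 kb apart. Of its 49 peaks, 28 had a promoter class and 12 lay in exons, against 631 and 326 of all 1412 peaks. Contig tig00007011 followed with 33 peaks at 8.11 per Mb (5.58 to 11.4), and its longest gap was 442 kb. With 29 peaks each, tig00007059 and tig00007111 came next, but at 12.9 per Mb (8.62 to 18.5) and 5.60 per Mb (3.75 to 8.04). The intervals of the first 3 of these contigs lay above the density of the whole list, whereas the interval of tig00007111 included it. These contigs were chosen for their high peak numbers, which favours a density above that of the list. On tig00007059 the Ov2.1 list had 11 peaks and the Ov3.1 list 4.

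Among the 96 contigs with a known span of at least 1 Mb, each had at least 1 Ov1.1 peak, and their densities ran from 0.562 to 16.6 per Mb with a median of 3.96. The intervals of 9 of these contigs lay above the density of the whole list, and those of 16 lay below it, with no adjustment for the number of contigs read. The extremes were chosen after their values were seen. At the upper end, tig00007061 held 17 Ov1.1 peaks, 7 Ov2.1 peaks and 1 Ov3.1 peak in 1.02 Mb. At the lower end, tig00007302 held 1 Ov1.1 peak, 17 Ov2.1 peaks and 7 Ov3.1 peaks in 1.78 Mb.

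**Figure D1:**
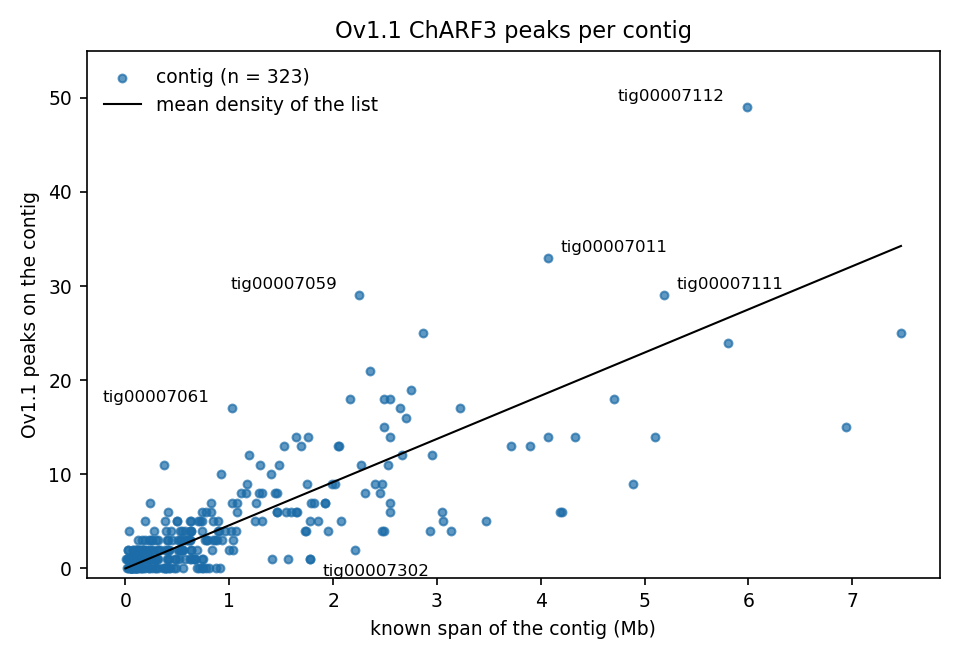
Each point is 1 of the 323 contigs, with its known span in Mb on the horizontal axis and its number of Ov1.1 peaks on the vertical axis, and the line marks the density of the whole list, 4.59 peaks per Mb. Contig tig00007112 with 49 peaks and tig00007059 with 29 lie well above the line, and tig00007302 with 1 peak lies well below it.

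Within contigs, the Ov1.1 peaks lay at very unequal distances from each other. The median of the 1139 gaps between neighbouring peaks was 98628 bp (quartiles 31103 and 215729 bp), and the shortest gap was 248 bp. Gaps under 10 kb numbered 145 (12.7%, interval 10.8% to 14.8%), gaps under 5 kb 95 and gaps under 1 kb 37 (3.25%, 2.30% to 4.45%). In the Ov2.1 list 6.33% of 1105 gaps were under 10 kb (4.97% to 7.94%), and in the Ov3.1 list 6.04% of 662 gaps (4.35% to 8.14%). The Ov1.1 list thus had the larger share of short gaps, beyond a counting error that takes gaps as independent, which gaps of 1 library are not. Among Ov1.1 peaks with a q-value of at most 0.01 the share was 8.79% (6.79% to 11.1%). The Ov3.1 list also had a lower density, and both later lists rest on far fewer fragments per peak, given below. The part of either in the difference was not tested. Of the 37 gaps under 1 kb, 34 had the same closest gene on both sides, and merging peaks less than 1 kb apart left 1375 regions.

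The longest gap lay on tig00007297, where no Ov1.1 peak was listed for 2.72 Mb between positions 404159 and 3125658. The contig held 6 Ov1.1 peaks, 20 Ov2.1 peaks and 10 Ov3.1 peaks, and the places of the later peaks relative to this stretch are not given here. Before the gap were 2 adjacent peaks of high background in the promoter of Cor0033810.1 and a peak of downstream class near Cor0033840.1. After it were 2 peaks of Cor0034330.1, with fold enrichments of 4.27 and 3.66, and the peak of the auxin synthesis gene YUC10. This contig and its genes other than YUC10 were singled out after their values were seen.

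**Figure D2:**
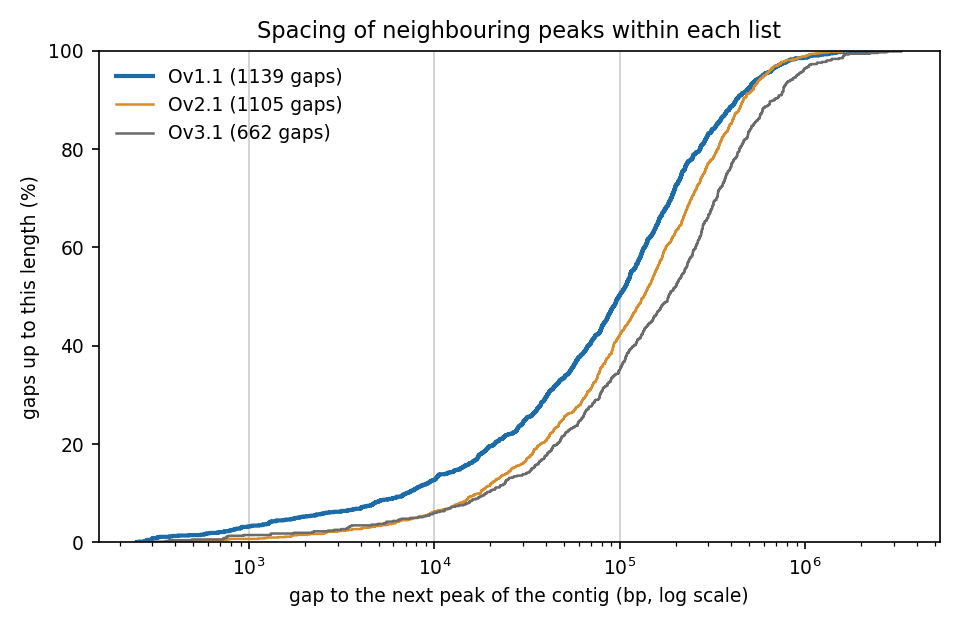
The curves give, for each gap length in bp on a log axis, the percentage of gaps between neighbouring peaks of a contig that were no longer than it, for Ov1.1 (1139 gaps), Ov2.1 (1105) and Ov3.1 (662). The Ov1.1 curve lies above the others at 10 kb, at 12.7% against 6.33% and 6.04%, and reaches its midpoint at a shorter gap.

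Peaks were narrow. Widths ran from 245 to 1718 bp with a median of 330 bp (quartiles 280 and 416 bp), and 514 peaks were under 300 bp (36.4%, 33.9% to 39.0%). Many lay close to the lower limit, since 129 peaks were within 10 bp of the narrowest. Only 94 peaks were wider than 600 bp and 8 wider than 1000 bp. Width hardly moved with the other measures of a peak, with a Spearman correlation over the 1412 peaks of 0.05 with fold enrichment and 0.13 with ChIP fragments. The widest, at tig00007244:1991563-1993280 in the promoter of Cor0107610.1, also had the highest fold enrichment of the list, 7.05. The next widest, 1212 bp of exon class near Cor0029550.1 at tig00007188:1103894-1105105 and 1203 bp near Cor0147580.1 at tig00007219:147007-148209, had only 2.65 and 3.49. The Ov3.1 peaks were as narrow, with a median of 333 bp, and the Ov2.1 peaks wider, with a median of 454 bp and a lowest width of 319 bp.

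The height of a peak is given by its fold enrichment, the ratio of ChIP fragments to the background taken from the input. The peak caller is known to add 1 to both numbers before it divides them and to take p from the upper tail of a Poisson distribution, so the fragment number and the background of each peak could be worked back from the listed pair of values. All 1412 peaks gave a whole fragment number, with a largest difference of 0.000506 between the listed and the recomputed -log10 p. A typical Ov1.1 peak rested on few fragments. The median was 17 ChIP fragments at the summit (quartiles 15 and 20, lowest 12) over a median background of 4.46 fragments, and the median fold enrichment was 3.21 (quartiles 2.90 and 3.56). The later lists rested on still fewer, with a median of 4 fragments over 0.256 in Ov2.1 and 3 fragments over 0.153 in Ov3.1. The fold enrichments of the stages are therefore not set against each other here. The study lists more mapped reads for the Ov2.1 ChIP library than for that of Ov1.1, and fewer for that of Ov3.1. Why the fragment numbers of the lists differ was not tested, and the fit above is that of the Ov1.1 list only.

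The lowest background, 3.68 fragments, was shared by 368 Ov1.1 peaks (26.1%, 23.8% to 28.4%), whose ChIP fragments ran from 12 to 32 with a median of 15. The peak caller uses such a minimum where the input near a peak is no higher than the average of the library. Many peaks carried the same values. The commonest fold enrichment, 3.21 from 14 fragments over 3.68, was listed for 77 peaks, and the whole list held only 580 different fold enrichments. Of the other peaks, 507 (48.6%) had a background that was a whole multiple of 0.405 within 0.001, as it would be if each input fragment counted for 0.405 ChIP fragments. The commonest multiple was 10 and 346 of these peaks had from 10 to 14. On that reading the background of these peaks rested on about as few fragments as the peaks themselves.

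A small set of peaks stood apart. The background exceeded 100 fragments at 31 peaks on 22 contigs (2.20%, 1.50% to 3.102%), with 199 to 2604 ChIP fragments and a median of 440. Their fold enrichments were low, from 1.18 to 2.89 with a median of 1.94, and 16 of the 18 peaks of the list with a fold enrichment under 2 were among them. The highest, near Cor0188870.1 at tig00007049:277643-278726, had 2604 ChIP fragments over a background of 2202. Several shared a contig, with 4 on tig00007070, 3 each on tig00006884 and tig00007306, and 2 each on tig00007008 and tig00007297. Those on tig00007070, tig00007306 and tig00007297 lay close together, with the 4 on tig00007070 within 3892 bp, whereas those on tig00006884 and tig00007008 lay far apart. By class, 13 were distal intergenic and 15 had a promoter class, against 1 each in exons, introns and downstream regions. Over all 1412 peaks, 223 were distal intergenic and 631 had a promoter class, with 326 in exons, 174 in introns and 58 downstream. These peaks were chosen by their background after it was seen.

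**Figure D3:**
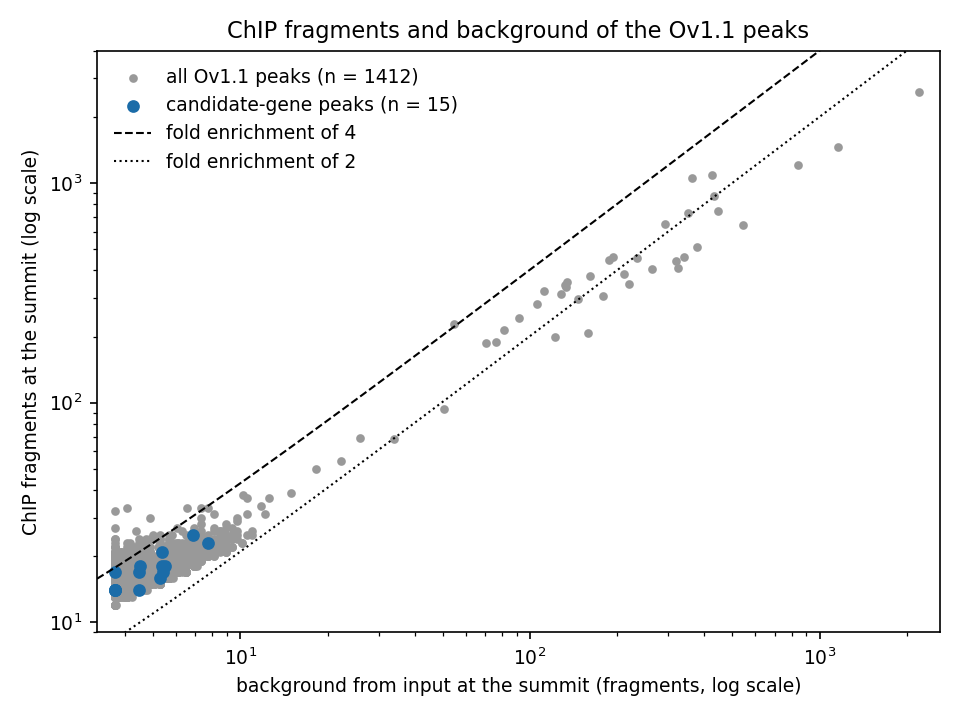
Each point is an Ov1.1 peak, with the background from the input on the horizontal axis and ChIP fragments at the summit on the vertical axis, both in fragments on log axes. Blue points are the 15 candidate-gene peaks, and the lines mark fold enrichments of 4 and 2. Most peaks, candidates included, crowd near 17 fragments over 4.46, and the 31 peaks with a background over 100 lie on both sides of the line of 2, with 16 of them below it and none above 2.89.

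By the genomic class of the peak, the median fold enrichment differed little, from 3.14 in promoters at 1 to 2 kb (95% interval of the median 3.06 to 3.21, n = 238) to 3.41 downstream of genes (3.21 to 3.63, n = 58). Exon peaks had a median of 3.21 (n = 326), intron peaks 3.21 (n = 174) and distal intergenic peaks 3.28 (n = 223). High peaks were spread less evenly. A fold enrichment of at least 4 was reached by 143 of all 1412 peaks (10.1%). The share was 14.3% among distal intergenic peaks (10.03% to 19.6%) and 4.62% among promoters at 1 to 2 kb (2.33% to 8.12%). These intervals do not overlap, but they belong to the highest and lowest class, picked after the values were seen and with no adjustment. The intervals also take peaks of 1 library as independent. Exon peaks, at 11.3% (8.12% to 15.3%), and promoters within 1 kb, at 11.6% (7.63% to 16.6%), lay between. So did downstream peaks (12.1%), promoters at 2 to 3 kb (10.7%) and intron peaks (6.90%). The lowest background of the list was held by 32.3% of distal intergenic peaks and 21.8% of promoters at 1 to 2 kb. Its part in the difference was not tested. Peaks in promoters within 1 kb and in exons had the larger median widths, 352 and 342 bp, and downstream peaks the smallest, 298 bp (283 to 338 bp).

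The study names 15 genes of auxin and ovule development for this stage, each with a single Ov1.1 peak, on 13 contigs. None of these 15 peaks reached a fold enrichment of 4 (0%, interval 0% to 21.8%, against 10.1% of all peaks), and their median of 3.21 (2.82 to 3.31) was that of the whole list. They rested on 14 to 25 ChIP fragments over backgrounds of 3.68 to 7.70. A q-value of 0.01 or less was reached by 8 of them (53.3%, 26.6% to 78.7%, against 66.0% of all peaks). Their values thus lay within the ordinary range of the list, with 6 below its median fold enrichment, 4 at it and 5 above it. A promoter class was given for 10 of the 15, against 631 of all 1412 peaks, and widths ran from 251 to 476 bp. The study assigned each peak to its closest gene. It drew its candidates on the basis of RNA data as well, seeking targets that changed opposite to ChARF3 between stages. Those RNA data were not used here, and closeness alone does not show that ChARF3 acts on a gene.

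Of the genes of auxin supply, YUC10 (Cor0034390.1) encodes a flavin monooxygenase of the YUCCA family, which makes auxin from indole-3-pyruvate. Its peak, at tig00007297:3273902-3274319 in the promoter within 1 kb, had 18 ChIP fragments (exact Poisson 95% interval 10.7 to 28.4) over a background of 5.37, a fold enrichment of 2.98. LAX5 (Cor0100160.1), an auxin influx carrier, had 21 ChIP fragments (13.0 to 32.1) over the same background of 5.37 at tig00006996:1455421-1455675, 1 to 2 kb from the start of the gene. The fold enrichment of LAX5 was 3.45, and the fragment intervals of YUC10 and LAX5 overlap widely.

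Of the genes of auxin response, IAA9 (Cor0110070.1) and IAA30 (Cor0096370.1) encode Aux/IAA repressors and SAUR32 (Cor0157210.1) belongs to the small auxin up RNA family. IAA9 had the most fragments of all candidates, 25 (16.2 to 36.9) over 6.87, in a peak of downstream class at tig00007074:661901-662238. SAUR32 had 23 fragments (14.6 to 34.5), but over the highest background of the candidates, 7.70, so that its fold enrichment was only 2.76. IAA30, with 14 fragments (7.65 to 23.5) over 3.68, reached 3.21. The order of these genes by fragments was thus not their order by fold enrichment. The promoter peaks of SAUR32 and IAA30 lay within 1 kb of the start of the gene, at tig00007167:751631-751917 and tig00006927:1218816-1219198.

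The other candidates except Pla a 1 encode transcription factors. TCP18 (Cor0043840.1), which as BRANCHED1 holds back bud outgrowth in Arabidopsis, had the highest fold enrichment of the 15, 3.85, from 17 fragments over 3.68 in a distal intergenic peak at tig00006975:3560474-3560806. PLT2 (Cor0106490.1), an AP2 factor that maintains root stem cells in Arabidopsis, had 18 fragments over 4.49 in its promoter within 1 kb at tig00007244:653770-654020. NAC25 (Cor0146070.1), a NAC factor, had 17 fragments over 4.46 and a fold enrichment of 3.297. The lowest fold enrichments of the 15 were 2.71 at MYB98 (Cor0094410.1), a MYB factor of the synergid cells of the Arabidopsis ovule, and 2.75 at bHLH21 (Cor0100570.1), the homologue of ABORTED MICROSPORES, which acts in the Arabidopsis tapetum. MYB98 had 16 fragments over 5.27 and bHLH21 14 over 4.46. The bHLH factor bHLH153 (Cor0080460.1) and the MYB factor MYB306 (Cor0092760.1) had fold enrichments of 2.82 and 2.94.

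SOC1 (Cor0083230.1), a MADS-box factor that promotes flowering, and EFM (Cor0005180.1), a MYB factor that delays it in Arabidopsis, had identical values, 14 fragments over 3.68. So did IAA30 and the putative invertase inhibitor Pla a 1 (Cor0115340.1). These 4 genes share the commonest pair of values of the list with the 77 peaks named above. Their sites differ, with the SOC1 peak 2 to 3 kb from the gene's start at tig00007149:1166820-1167107, the EFM peak distal at tig00007002:1330776-1331027 and the Pla a 1 peak downstream at tig00006990:674473-674776. At a q-value of 0.0112 each, these 4 peaks lie outside a limit of 0.01, as do MYB98 (0.0243), bHLH21 (0.0337) and bHLH153 (0.0144).

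**Figure D4:**
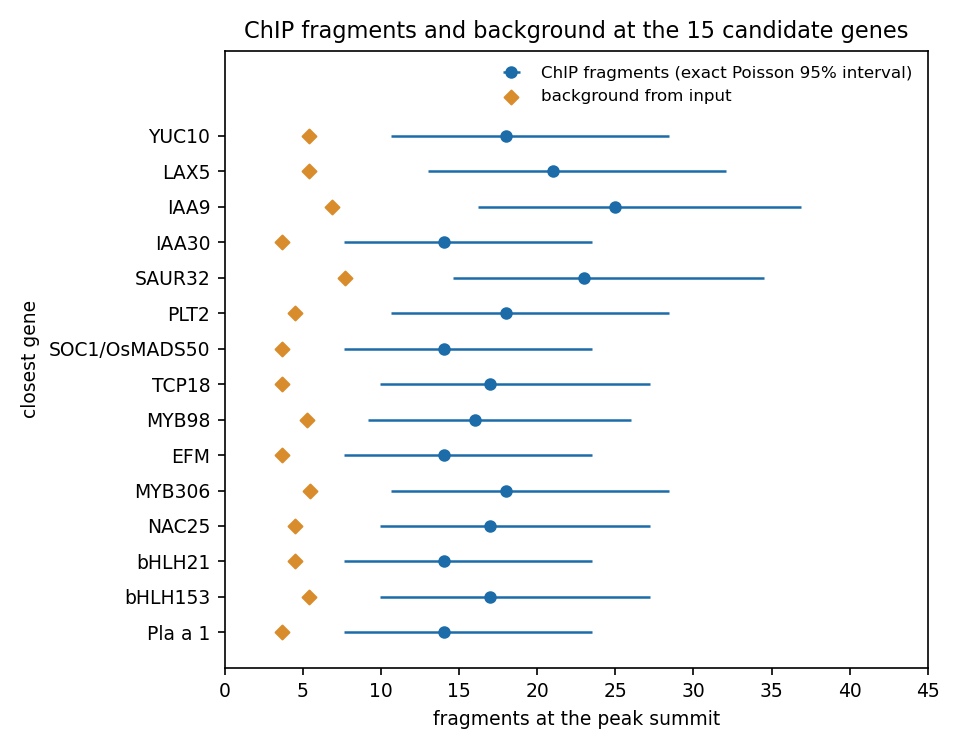
Circles give the ChIP fragments at the summit of each candidate gene's Ov1.1 peak with the exact Poisson 95% interval, and diamonds the background from the input, both in fragments. Fragments ran from 14 to 25 and backgrounds from 3.68 to 7.70. The intervals of all 15 genes overlap one another, and each lies above its background, which the peak call itself requires.

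A wider set of 103 genes with 112 Ov1.1 peaks was grouped by the function in their product names, and the candidates above are among them. The study also names pathways for the stage, among them the pentose phosphate pathway, glycolysis and gluconeogenesis, amino acid and secondary metabolite synthesis and plant-pathogen interaction. The members of those pathways were not used here, so the groups only stand beside them. Of the 112 peaks, 10 had a fold enrichment of at least 4 (8.93%, 4.36% to 15.8%, against 10.1% of all Ov1.1 peaks), a share near that of the list. The median was 3.21, again that of the list. The medians of the 10 groups ran from 2.99 to 3.35. In each of the 7 groups with 6 or more peaks the 95% interval of the median included 3.21, and smaller groups allow no such interval.

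Among 19 peaks at transcription factor genes, the median was 3.35 (2.94 to 3.75) and 1 reached 4. It was that of OFP6 (Cor0187330.1), an OVATE family protein, a family of transcriptional repressors, with 19 fragments over 3.68 and a fold enrichment of 4.27 in an intron. TCP18 shared the next value, 3.85, with PDF2 (Cor0079220.1), an HD-ZIP factor of the epidermis in Arabidopsis, and with the Dof zinc finger factor DOF4.6 (Cor0082390.1). At the low end was a gene with a B3 domain (Cor0048530.1), the kind of domain ARFs bind DNA with, at 2.54 from 18 fragments over 6.49.

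Other hormone and peptide genes numbered 6 with 8 peaks, and none reached 4 (interval 0% to 36.9%, against 10.1% of all peaks). CKX1 (Cor0139670.1), a cytokinin-degrading dehydrogenase, had 2.58. BKI1 (Cor0070930.1), an inhibitor of the brassinosteroid receptor in Arabidopsis, had a downstream peak of 2.89 and an exon peak of 3.16, only 0.320 kb apart. Histidine kinases sense hormones or osmotic state, and 2 neighbouring genes of this kind, both named HK1, had 3 promoter peaks within a few kb on tig00006949. Those of Cor0066050.1 had 3.301 and 3.11 and that of Cor0066060.1 had 2.40. The genes of the peptide precursors CLE25 (Cor0093390.1) and phytosulfokine, PSK (Cor0110990.1), had 3.11 and 3.21. The peaks of this group rested on 14 to 21 fragments.

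In carbon and nitrogen metabolism, 3 of 15 peaks reached 4 (20%, 4.33% to 48.1%, against 10.1% of all peaks). The highest was near a glycerol kinase gene (Cor0098760.1) at 4.74, with 23 fragments over 4.06 in a distal peak. UAH (Cor0212790.1) followed at 4.23, in an exon, and ALN (Cor0145690.1), picked after its value was seen, at 4.06, downstream. Allantoinase (ALN) and ureidoglycolate hydrolase (UAH) both act in the breakdown of allantoin, which frees nitrogen from purines. The lowest value, 2.54, was at N-carbamoylputrescine amidase (Cor0058560.1), an enzyme of polyamine synthesis. AAE1 (Cor0006000.1), an acyl-activating enzyme, lay outside the naming rule and was picked after its values were seen, since its distal peak is the only one of the 112 with a background over 100. It had 323 ChIP fragments over 112, a fold enrichment of 2.87.

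Of 11 peaks in secondary metabolism and 10 in cell wall genes, none reached 4 (intervals 0% to 28.5% and 0% to 30.8%, against 10.1% of all peaks). The highest in secondary metabolism were 3.56 at a salutaridine reductase gene (Cor0170340.1) and 3.49 at spermidine coumaroyl-CoA acyltransferase (Cor0218280.1), an enzyme of phenolamide synthesis. The lowest was 2.63 at omega-hydroxypalmitate O-feruloyl transferase (Cor0199180.1), an enzyme of suberin synthesis. In the cell wall group, BGAL9 (Cor0121700.1), a beta-galactosidase, had an intron peak of 3.56 and a promoter peak of 3.03, and a polygalacturonase (Cor0063310.1), which cuts pectin, had 3.49. Mannanase 2 (Cor0146870.1) was lowest at 2.77, although its peak, 765 bp, was wide for the list.

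The highest 2 peaks of the set were at transporter genes, although the share of high peaks in this group was near that of the list. Of 22 peaks, 3 reached 4 (13.6%, 2.91% to 34.9%, against 10.1% of all peaks), and the median was 3.31 (2.91 to 3.67). ACA13 (Cor0067420.1), a plasma membrane calcium pump, had 27 fragments over 3.68 in its promoter within 1 kb at tig00006943:2259599-2259913, a fold enrichment of 5.98 that was higher than that of 99.8% of all Ov1.1 peaks. STA (Cor0111810.1), a sugar carrier, had 24 fragments over 3.68 in an exon at tig00006967:783449-784232, a fold enrichment of 5.34. The metal transporter NRAMP3 (Cor0060390.1), picked after its value was seen, had a fold enrichment of 4.33. Sugar carriers stood at both ends of the group, since the hexose transporter STP5 (Cor0051830.1) had its lowest value, 2.40, from 17 fragments over 6.49.

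Of 17 peaks at receptor kinase and defence genes, 3 reached 4 (17.6%, 3.80% to 43.4%, against 10.1% of all peaks). They shared the value 4.06, from 18 fragments over 3.68. They were those of a G-type lectin receptor kinase (Cor0209040.1), a receptor-like kinase (Cor0215360.1) and CPR1 (Cor0195310.1), an F-box protein that limits resistance proteins in Arabidopsis. The lowest value, 2.41, was at a leucine-rich repeat receptor kinase (Cor0070010.1). Its other peak, of 2.82, lay 4.65 kb away and had the same class, promoter at 2 to 3 kb. Chromatin and transcription machinery had 5 genes with 1 peak each, from 2.87 to 3.67. The cohesin subunit SMC1 (Cor0068450.1) had 3.67 downstream, and LEO1 (Cor0142470.1), a subunit of the Paf1 elongation complex, had 3.21 in a distal peak. The Mediator subunit MED15a (Cor0167620.1) had 3.13, the Sin3-like corepressor SNL2 (Cor0093500.1) 3.07 and the RNA methylation reader ECT4 (Cor0160270.1) 2.87.

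**Figure D5:**
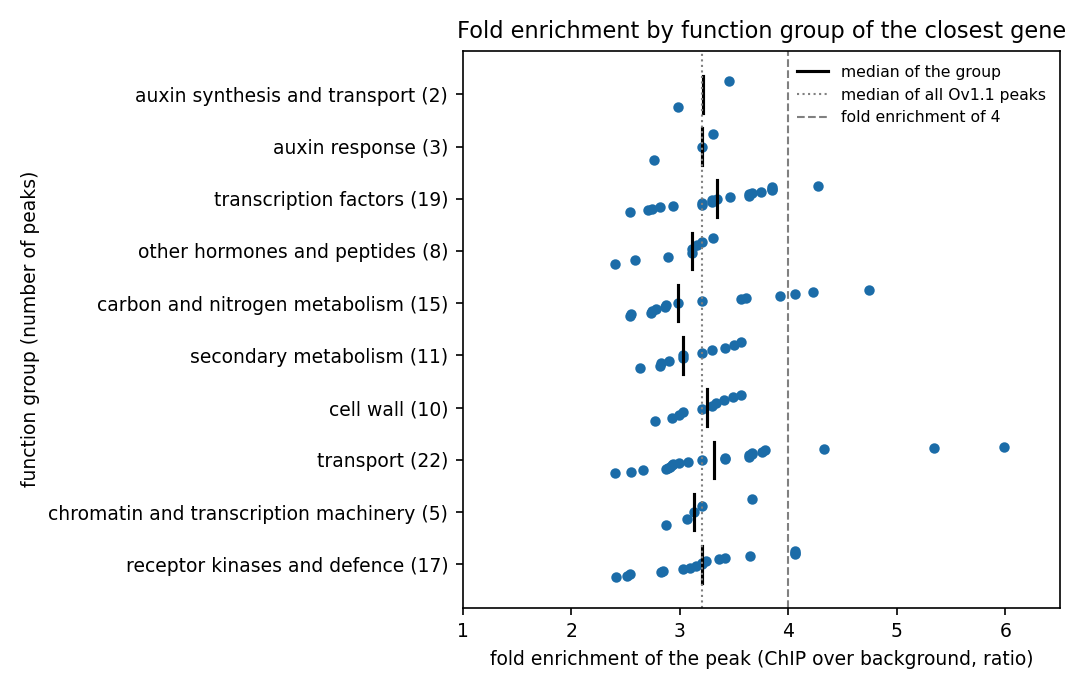
Each point is the fold enrichment (ChIP over background, a ratio) of 1 of the 112 peaks, by the function group of its closest gene with the number of peaks in parentheses. Bars are group medians, the dotted line is the median of all Ov1.1 peaks, 3.21, and the dashed line is a fold enrichment of 4. The group medians lie close to the dotted line, and the highest points are ACA13 at 5.98 and STA at 5.34.

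Most genes near an Ov1.1 peak had only 1. The 1412 peaks had 1306 closest genes, of which 88 had 2 peaks, 6 had 3 and 2 had 4. The genes with 4 were unlike each other. The 4 peaks of Cor0103470.1 on tig00007070 lay within 3892 bp, all with high backgrounds, 511 to 1466 fragments and fold enrichments of 1.18 to 1.44. Those of Cor0087500.1 on tig00007282 were spread over 51124 bp, with 14 to 21 fragments and fold enrichments of 2.42 to 3.42. The genes with 3 peaks had them within 2673 bp (Cor0035340.1, all in its promoter) to 11267 bp (Cor0149760.1, with peaks in exons and the promoter). In between were Cor0016480.1 with 3041 bp, Cor0017750.1 with 4848 bp, Cor0038990.1 with 8718 bp and Cor0109770.1 with 9056 bp. These 6 genes had 14 to 25 fragments per peak and fold enrichments of 2.16 to 4.03. The product names of the 8 genes were not looked up here.

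Of the 103 grouped genes, 9 had 2 peaks. Pairs of different grouped genes with peaks less than 25 kb apart were few. SOC1 and a beta-amylase gene (Cor0083250.1) had peaks 7.69 kb apart on tig00007149, bHLH153 and a class III peroxidase gene, Peroxidase 29 (Cor0080450.1), 15.1 kb apart on tig00007031, and OFP6 and OFP13 (Cor0187340.1) 21.3 kb apart on tig00007416. The HK1 genes were nearest to each other, at 3.40 kb. The dense contig tig00007059 carried the most grouped genes, 5, namely MYB306, CLE25, SNL2, ALDH2B7 (Cor0093940.1) and MYB98. Both of its candidates were below the list's median, with 2.94 at MYB306 and 2.71 at MYB98. The neighbours among these genes were chosen after their positions were seen.

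Few Ov1.1 positions recurred in the later lists. At least 1 bp was shared with an Ov2.1 peak by 2 Ov1.1 peaks (0.142% of the Ov1.1 list and 0.147% of the Ov2.1 list) and with an Ov3.1 peak by 3 (0.212% of the Ov1.1 list and 0.336% of the Ov3.1 list). These 5 lay near Cor0169970.1, Cor0170480.1, Cor0212150.1, Cor0167910.1 and Cor0101100.1, none of them a grouped gene and all named after the overlap was seen. Their Ov1.1 peaks had 13 to 18 fragments, and the later peaks 3 to 6. The highest was that near Cor0101100.1, at tig00007215:517631-517940, with 18 fragments over 3.68 at Ov1.1 and 6 over 0.102 at Ov3.1. Within 10 kb, 120 Ov1.1 peaks had an Ov2.1 peak (8.50%, 7.10% to 10.1%) and 93 an Ov3.1 peak (6.59%, 5.35% to 8.01%).

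None of the 15 candidate peaks overlapped a later peak, against 5 of all 1412 Ov1.1 peaks. With so low a share in the list, 15 peaks are too few for a comparison. Their nearest Ov2.1 peaks lay 35.5 kb (MYB306) to 281 kb (SOC1) away, with a median of 80.0 kb, and their nearest Ov3.1 peaks 5.49 kb (IAA9) to 414 kb (SOC1) away, with a median of 94.9 kb. IAA9 was the only candidate with a later peak within 10 kb. Of all Ov1.1 peaks, 8.50% had an Ov2.1 peak and 6.59% an Ov3.1 peak within that distance. Over all Ov1.1 peaks on shared contigs, the median distance was 74.3 kb to an Ov2.1 peak and 116 kb to an Ov3.1 peak. At the low fragment numbers of the later lists, a site bound at both stages could be missed, so an absent overlap does not show that binding was lost.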

How the data were processed

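Chromatin from hazel ovules of 3 stages was sequenced with and without immunoprecipitation of ChARF3, as 6 libraries, 1 of each kind per stage. Per the labels and the study's methods, the authors aligned the reads (Bowtie2) and ran MACS2 with a limit of 0.05 on q and the stage's own input as control. Tool versions, genome release and duplicate handling were not given in the sources used here. All of them bear on how many peaks are called.

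Fold enrichment was deposited as a ratio on a linear scale. The authors deposited p-values and q-values as -log10, and the deposited score equalled 10 times -log10 q, rounded down, in all 1412 rows. No read totals are in the lists, so the support of a peak is given as its solved fragment number, with a tolerance of 0.01 on -log10 p. This number is not a measure of library depth. The solver and the interval functions were tested on simulated data. Positions count from 1 on the contigs of the authors' assembly.

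Closest genes and genomic classes are labels of the study's peak annotation, joined by contig, start and end for all 1412 peaks, and no value was taken from it. Whether a class such as exon, intron or downstream refers to the closest gene itself was not checked. Gene groups were made by hand from the study's product names. Named genes are the 15 candidates, up to 2 highest and 1 lowest by fold enrichment in each group (ties included), all members of groups of 6 or fewer, genes with 3 or more peaks, the 3 contigs with most peaks (4 with ties) and the 3 widest peaks. Others, such as ALN, NRAMP3 and AAE1, lie outside this rule and were picked after their values or positions were seen. The members and lists were chosen with earlier results of these data known. Shares have exact Clopper-Pearson intervals, counts exact Poisson intervals and medians of 6 or more values order-statistic intervals, all at 95% or more. Peaks within a list share 1 library and are not replicates. Sequence under the peaks was not analysed here. Alternatives were a q-value of 0.01, a fold enrichment of 4 (or a limit of 3), merged peaks, other spans and distances, and the other Poisson tail. Scripts ran in Python 3.11.15 with scipy 1.17.1, pandas 2.3.3 and numpy 2.4.6, and plots were drawn with matplotlib 3.10.9.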

Additional observations from a re-analysis of the deposited data

How the results depend on the processing

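No paired analysis was possible because each stage had 1 ChIP and 1 input library. Of 32 alternative values for the 11 results, 11 stayed close to the reported one and 21 moved. Many of the moves follow from the alternative itself, such as fewer peaks under a stricter limit, so the tally does not measure robustness. The limits on q-value and fold enrichment were set on the later lists too, which bears on the overlaps. At a q-value of at most 0.01, 932 peaks were left, at 3.03 per Mb, with a median spacing of 135800 bp, 8.79% of gaps under 10 kb, a median fold enrichment of 3.42 and 1 overlap with a later peak. At a fold enrichment of at least 4, 143 peaks on 95 contigs were left, at 0.464 per Mb, with a median spacing of 465968 bp, 4.17% of gaps under 10 kb, a median width of 346 bp, a median fold enrichment of 4.21, 56.6% at the lowest background and 1 overlap. No candidate peak was left there, so that median has no value. A limit of 3 in place of 4 was reached by 64.3% of the function-group peaks. Merging peaks less than 1 kb apart left 9.80% of gaps under 10 kb, and 8.34% of gaps were under 5 kb. With spans from the Ov1.1 list alone the density was 5.404 per Mb. Counting peaks within 1 kb as shared gave 23 in place of 5. With the observed fragment number itself counted in the Poisson tail, 19.3% of peaks were at the lowest background, but only 192 of 1412 peaks could then be solved within tolerance. The median width at a q-value of 0.01 and the median fold enrichment without backgrounds over 20 moved by less than their intervals. With a median of 17 fragments per peak, the counting intervals of single genes are wide, and with no replicate the spread between libraries of the stage is unknown.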
